A study of Mus musculus with 12 samples.

Results

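The receptors for interleukin 3 (IL3), interleukin 5 (IL5) and granulocyte-macrophage colony-stimulating factor (GM-CSF) were examined through their 5 chain genes, Csf2rb, Csf2rb2, Csf2ra, Il3ra and Il5ra. They were chosen by name, as the rows whose Ensembl identifiers belong to these alpha and beta chains, and they are 5 of the 51826 genes counted. RNA sequencing was done on 12 mouse pre-B cell lines of the strain C57BL/6, with 6 lines carrying an empty vector (EV) and 6 carrying BCR-ABL1. BCR-ABL1 is the fusion tyrosine kinase of Philadelphia chromosome-positive leukemia. Bone marrow of 2 mice was grown in IL7 for 7 days and transduced with retroviral vectors, which gave 3 lines per mouse and condition. The lines are named 1A to 1C and 2A to 2C, and the number was read as the mouse. All lines then had 48 hours in IL7. The BCR-ABL1 lines were next deprived of IL7 for 1 week until transformed, while the EV lines stayed in IL7 and were sorted for green fluorescent protein. BCR-ABL1, IL7 withdrawal and outgrowth of transformed cells therefore came together and cannot be told apart. Total counts per line ran from 34791011 to 66011225.

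Each of these receptors pairs an alpha chain, which recognises 1 cytokine, with a beta chain that carries the signal through the kinase JAK2 to STAT5 and to the RAS and PI3 kinase branches. Csf2rb is the common beta chain used by all the alpha chains here, and Csf2rb2 is a second beta chain of the mouse that works with the IL3 alpha chain. The receptors are best known from myeloid cells, eosinophils, mast cells and some B cells, and IL3 has long been used to grow early hematopoietic cell lines.

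The beta chain genes lie side by side on chromosome 15 in the build GRCm38 and are transcribed away from each other. Csf2rb (ENSMUSG00000071713) spans chr15:78325752-78353847 on the plus strand and Csf2rb2 (ENSMUSG00000071714) spans chr15:78282507-78305721 on the minus strand, with 20031 bp between their starts. Their coding sequences are 2691 and 2637 bases long, and 2505 of 2631 aligned bases (95.2%) were identical. The longest identical run was 242 bases. Of all stretches of 150 bases, the read length, 3.47% of those in Csf2rb also occurred in Csf2rb2, and 3.59% the other way round. For stretches of 50 bases the values were 18.4% and 19.0%. Only exact matches count here, so reads aligned with mismatches are not covered. A window of 60 coding bases, from 24 to 83 counted from the start codon in GENCODE M21 transcripts, is shown because it shows how alike the genes are. Capitals mark the 3 bases that differ.
Csf2rb: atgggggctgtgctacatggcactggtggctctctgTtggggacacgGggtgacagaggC
Csf2rb2: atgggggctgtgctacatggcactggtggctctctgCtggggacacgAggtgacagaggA
How the counting treated reads that match both genes is not given in the sources used here, so the levels of Csf2rb and Csf2rb2 are uncertain where they share sequence, and their sum is given beside them.

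The beta chains were much higher in the BCR-ABL1 lines, the IL3 alpha chain was higher, the IL5 alpha chain was lower, and the GM-CSF alpha chain gave no call. Levels are given as CPM, counts scaled to a common library size with edgeR's TMM factors. Changes were tested with edgeR's glmTreat against a 1.5-fold change, and Benjamini-Hochberg adjusted p-values were taken over 15038 genes, with a threshold of 0.05. All 5 chains passed the filter on low counts. Csf2rb2 passed it through the BCR-ABL1 lines, with 496 to 998 counts there against 1 to 11 in the EV lines. A gene that enters this way can hardly be called other than higher, so its call adds little to the count of calls. Of the 5 chains, 3 were called higher and 1 lower, against 5.99% of all genes tested called higher and 6.49% called lower. All p-values rest on the spread between lines from the same 2 animals.

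Csf2rb lay between 4.71 and 13.6 CPM in the EV lines, with a median of 6.44 CPM, and between 145 and 174 CPM in the BCR-ABL1 lines, with a median of 165 CPM. Every BCR-ABL1 line stood above every EV line, and the BCR-ABL1 lines varied little, with a coefficient of variation of 7.77% against 42.8% among the EV lines. The EV value is widened by line 2B, at 13.6 CPM, while the next highest EV line, 1B, was at 6.97 CPM. The means were 7.36 ± 3.15 CPM (SD, n = 6) and 161 ± 12.5 CPM (SD, n = 6), and the log2 fold change was 4.45 (limma standard error 0.20, 95% confidence interval 4.10 to 4.96 on the limma fit), or 21.9-fold. The edgeR adjusted p was 5.18e-07. Of the genes tested, 215 had a larger positive log2 fold change than Csf2rb, but of the 2695 at least as abundant on average only 6 did. Among all genes tested, 12.1% had every BCR-ABL1 line above every EV line and 13.5% had every one below.

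Csf2rb2 was close to absent in the EV lines, with 1 to 11 counts per line, and had 496 to 998 counts in each BCR-ABL1 line. The EV levels ran from 0.0144 to 0.276 CPM with a median of 0.0819 CPM, and the BCR-ABL1 levels from 10.65 to 15.2 CPM with a median of 13.3 CPM. The groups did not overlap. The 3 EV lines of mouse 1 had 2, 1 and 2 counts, at or under the floor of 3 counts. The fitted log2 fold change was 6.89 (limma standard error 0.42, 95% confidence interval 5.80 to 7.64), with an edgeR adjusted p of 1.32e-05. With so few EV counts this estimate depends on the prior count. On pooled counts scaled for depth, the ratio of BCR-ABL1 to EV was 481 in mouse 1 (95% counting interval 206 to 1484, from 5 EV counts) and 69.9 in mouse 2 (47.9 to 106, from 27 EV counts), which covers counting error only.

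The summed beta chains, which do not depend on how reads were split between the genes, lay between 4.75 and 13.8 CPM in the EV lines and between 156 and 189 CPM in the BCR-ABL1 lines. No EV line came near a BCR-ABL1 line. The log2 fold change of the sum was 4.54 (limma standard error 0.20, 95% confidence interval 4.19 to 5.05), or 23.3-fold, with an edgeR adjusted p of 4.53e-07 in a fit where 5.99% of genes were called higher.

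**Figure D1:**
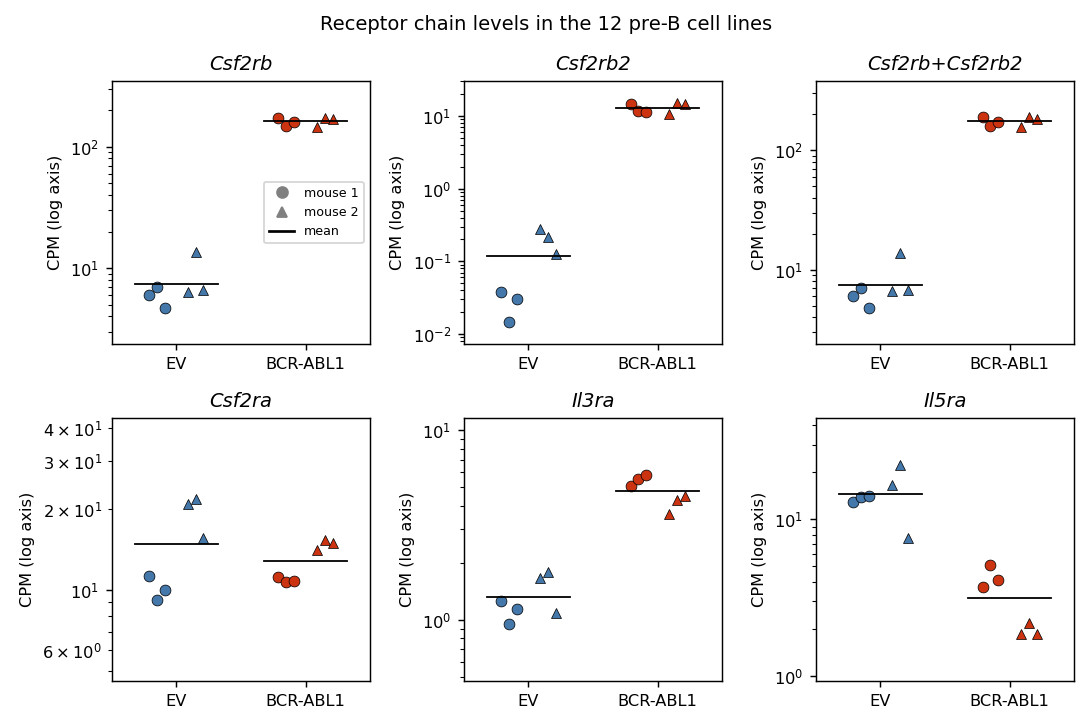
CPM on a log axis of the 5 chains and of the summed beta chains in the 6 EV and 6 BCR-ABL1 lines, with circles for mouse 1, triangles for mouse 2 and a line at the group mean. Csf2rb, Csf2rb2 and Il3ra lie apart and higher in BCR-ABL1, Il5ra lies apart and lower, and the Csf2ra points of both conditions share a range.

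The smaller beta chain also took a larger part of the beta chain counts in the BCR-ABL1 lines. Csf2rb2 made up 0.623%, 0.207% and 0.647% of the counts on both genes in EV lines 1A, 1B and 1C, and 4.19%, 1.58% and 1.89% in EV lines 2A, 2B and 2C. It made up 7.90%, 7.43%, 6.56%, 6.83%, 8.03% and 8.06% in the BCR-ABL1 lines in the same order. All BCR-ABL1 lines were above all EV lines, with EV line 2A the nearest. The 95% Wilson interval in EV line 2A was 2.22% to 7.76%, from 9 of 215 counts, and it reached into the BCR-ABL1 range of 6.56% to 8.06%. The means were 1.52 ± 1.45% and 7.47 ± 0.643% (SD, n = 6 each), a difference of 5.95 percentage points with an exact two-sided permutation p of 0.00216, the smallest that all splits into 6 and 6 allow. How many reads of 1 gene were counted to the other was not tested.

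**Figure D2:**
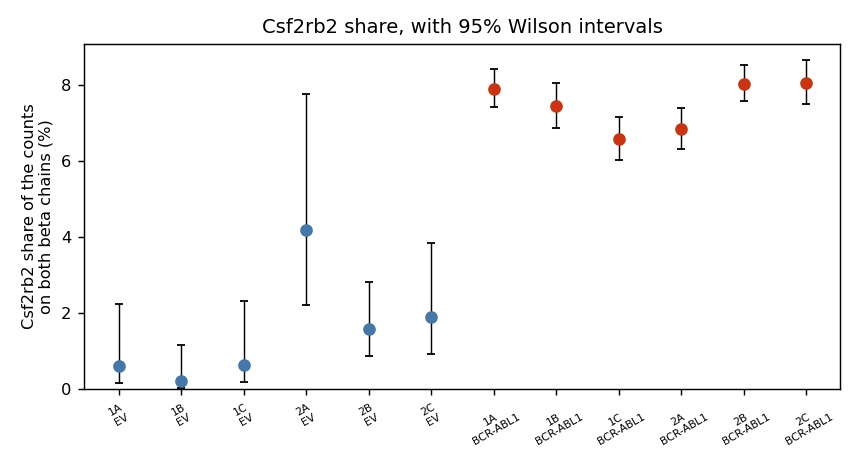
Share of Csf2rb2 in the counts on both beta chains, in percent, for each of the 12 lines, with 95% Wilson intervals as bars (EV blue, BCR-ABL1 red). The 6 BCR-ABL1 lines lie between 6.56% and 8.06%, and the EV line nearest to them, 2A, lies at 4.19%.

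For Csf2rb2 the 250 bases before its start in RefSeq, build GRCm38.p6, at chr15:78305722-78305971 on the minus strand, are shown because this gene changed the most of the 5. Capitals mark matches to the STAT palindrome TTCNNNGAA and to GAGGAA, the core of sites for the myeloid and B cell factor PU.1, searched on both strands.
Csf2rb2: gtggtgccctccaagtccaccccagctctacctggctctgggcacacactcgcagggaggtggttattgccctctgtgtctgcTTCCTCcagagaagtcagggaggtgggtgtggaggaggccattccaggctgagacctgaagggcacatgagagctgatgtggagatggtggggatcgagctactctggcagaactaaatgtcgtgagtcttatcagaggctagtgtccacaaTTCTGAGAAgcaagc
The palindrome match starts 15 bases before the start. Promoter windows from 250 bases before to 50 bases after the start were found for 4 of the 5 chains, without Csf2rb. The palindrome occurred in the window of Csf2rb2 alone, and in 8.30% of all 32851 promoter windows. GAGGAA occurred 2 times in Csf2rb2, 2 times in Csf2ra and 1 time in Il5ra, not in Il3ra, and in 28.3% of all windows. The Il3ra window was rich in G and C, at 74.3% against a median of 52.7% over all windows. These matches describe the letters only.

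Il3ra, the alpha chain for IL3 (ENSMUSG00000068758, chr14:14346275-14356011, plus strand), was low in every EV line and rose in BCR-ABL1. It ran from 0.953 to 1.79 CPM in EV with a median of 1.20 CPM, and from 3.62 to 5.82 CPM in BCR-ABL1 with a median of 4.79 CPM. The groups did not overlap. The log2 fold change was 1.87 (limma standard error 0.19, 95% confidence interval 1.46 to 2.26), or 3.66-fold, with an edgeR adjusted p of 0.000194.

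Il5ra, the alpha chain for IL5 (ENSMUSG00000005364, chr6:106710357-106749037, minus strand), moved the other way. It ran from 7.65 to 22.4 CPM in EV with a median of 14.1 CPM, and from 1.85 to 5.08 CPM in BCR-ABL1 with a median of 2.94 CPM. The lowest EV line, 2C, still stood above the highest BCR-ABL1 line, 1B. Il5ra fell by 2.22 on the log2 scale (limma standard error 0.31, 95% confidence interval -2.92 to -1.59), so that its level was 4.67-fold higher in EV, with an edgeR adjusted p of 0.00121.

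Csf2ra, the alpha chain for GM-CSF (ENSMUSG00000059326, chr19:61223957-61228429, minus strand), had overlapping groups. It ran from 9.20 to 21.8 CPM in EV with a median of 13.4 CPM, and from 10.7 to 15.3 CPM in BCR-ABL1 with a median of 12.6 CPM. The log2 difference was -0.20 (limma standard error 0.22, 95% confidence interval -0.62 to 0.35), with an edgeR adjusted p of 1. The interval leaves room for changes in either direction that stay under 1.5-fold upward and slightly over it downward.

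Measured per length of exon, so that genes could be compared, the order of the chains differed between the conditions. The length joins all annotated exons of a gene, such as 7277 bases for Csf2rb and 4740 for Csf2rb2. It is not the length of the transcripts expressed, so the order within a condition and the ratios between chains depend on it. In EV, Csf2ra led with 5.15 ± 1.93 CPM per kb (SD, n = 6) and Il5ra followed with 4.08 ± 1.35 CPM per kb, 2 levels whose ranges overlapped. Csf2rb stood at 1.01 ± 0.433 CPM per kb, Il3ra at 0.442 ± 0.113 CPM per kb and Csf2rb2 at 0.0247 CPM per kb, each below the one before without overlap. In BCR-ABL1, Csf2rb led with 22.2 ± 1.72 CPM per kb. It was followed by Csf2ra at 4.47 ± 0.756, Csf2rb2 at 2.76 ± 0.432, Il3ra at 1.62 ± 0.277 and Il5ra at 0.874 ± 0.381 CPM per kb. Of these neighbours, only Il3ra and Il5ra overlapped.

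The summed beta chains lay below Csf2ra and Il5ra in EV and above every alpha chain in BCR-ABL1, where Csf2rb2 by itself stayed below Csf2ra. The ratio of the summed beta chains to Csf2ra, both per kb, ran from 0.128 to 0.300 in EV and from 4.53 to 6.91 in BCR-ABL1. The ratio to Il5ra ran from 0.165 to 0.434 and from 16.0 to 50.9. For Il3ra the beta chains were already above the alpha chain in EV, at 1.66 to 3.18, and stood at 12.2 to 18.8 in BCR-ABL1. These are RNA levels, and the proteins on the cell surface were not measured here.

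**Figure D3:**
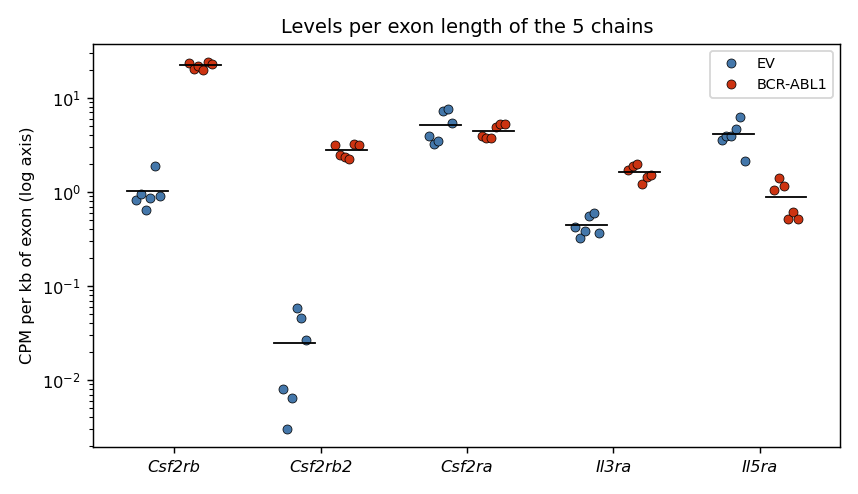
CPM per kb of exon on a log axis for the 5 chains, with 1 point per line and a bar at the mean (EV blue, BCR-ABL1 red). Csf2rb moves from 1.01 to 22.2 CPM per kb and passes Csf2ra, which lies at 5.15 in EV and 4.47 in BCR-ABL1.

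The size of the change was compared between the animals, since each condition had lines from both. Within mouse 1 alone, edgeR gave log2 fold changes of 4.77 for Csf2rb, 8.78 for Csf2rb2, 2.30 for Il3ra and -1.67 for Il5ra. Within mouse 2 alone they were 4.21, 6.07, 1.47 and -2.97 in the same order. All 8 passed the edgeR threshold, with adjusted p-values from 7.25e-10 to 0.0473, the last for Il3ra in mouse 2. Over all genes, the same fits called 2512 higher and 1877 lower in mouse 1, and 614 and 408 in mouse 2. For Csf2ra the values were 0.11 in mouse 1 and -0.38 in mouse 2, neither called.

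With all 12 lines and the low-count filter, Csf2rb2 was the only chain whose change differed between the animals by edgeR's quasi-likelihood interaction test. Other chains were called under some alternatives, as given with them. Its log2 change was smaller in mouse 2 (mouse 2 minus mouse 1, -2.69, edgeR adjusted p = 0.00386), in a test that called 16.9% of all genes. In the EV lines mouse 2 was 2.79 higher on the log2 scale than mouse 1 (edgeR adjusted p = 0.000983, 24.8% of genes called), while in BCR-ABL1 the animals differed by 0.10 (edgeR adjusted p = 0.921, 5.97% of genes called). In counts the EV lines were at 2, 1 and 2 in mouse 1 and at 9, 11 and 7 in mouse 2.

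Csf2ra also differed between the animals in EV, at 10.1 ± 1.04 CPM in mouse 1 and 19.4 ± 3.34 CPM in mouse 2 (SD, n = 3 each). Its log2 difference was 0.93 with an edgeR adjusted p of 0.000436. In BCR-ABL1 it was 10.9 ± 0.234 and 14.8 ± 0.633 CPM, a log2 difference of 0.44 that was not called (edgeR adjusted p = 0.0884). In both conditions all 3 lines of mouse 2 lay above all 3 lines of mouse 1. For Csf2rb, Il3ra and Il5ra, no difference between the animals was called in either condition with all 12 lines and the low-count filter. In BCR-ABL1, however, all 3 lines of mouse 2 lay below all 3 of mouse 1 for Il5ra (1.85 to 2.17 against 3.71 to 5.08 CPM) and for Il3ra (3.62 to 4.52 against 5.05 to 5.82 CPM). How many of all genes split the animals in this way was not counted. These splits, and those of Csf2ra, are therefore not results about the chains. The BCR-ABL1 difference of Il5ra was called with no filter (-1.13, edgeR adjusted p = 2.86e-05) and with the likelihood ratio test (-1.13, 0.0130), and the EV difference of Csf2rb was called with no filter (0.50, 0.00753). Without EV line 2C, the EV difference was called for Csf2rb (log2 0.78, edgeR adjusted p = 0.0214), Il3ra (0.63, 0.0158) and Il5ra (0.51, 0.0198), the BCR-ABL1 difference for Csf2ra (0.44, 0.00576) and Il5ra (-1.13, 0.000391), and the interaction for Csf2ra (-0.63, 0.00341), Il3ra (-1.03, 0.00500) and Il5ra (-1.64, 0.000129). Without EV line 2B, the BCR-ABL1 difference of Il5ra was called (-1.13, edgeR adjusted p = 0.0189). The share of all genes called in these refits was not counted, so the calls are not particular to the chains. With all 12 lines and the filter, 24.8% of genes were called for the EV difference, 5.97% for the BCR-ABL1 difference and 16.9% for the interaction.

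The cytokines themselves were hardly counted. Csf2, which encodes GM-CSF, had no count in any line, and Il3 and Il5 had at most 3 counts in any line. None passed the filter, and at this depth a level of up to 3 counts per line could not be told from 0.

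Downstream of the receptors, the calls in the signaling lists were all upward in the test against a 1.5-fold change with all 12 lines. Of 54 genes in the lists of kinases, STAT factors, adaptors, inhibitors and STAT5 targets, all were tested, 11 were called higher (20.4%, against 5.99% of all genes tested) and none lower (against 6.49%), and the median log2 fold change was 0.01, against -0.02 over all genes tested. At an unadjusted glmTreat p under 0.05, 12 were higher and 2 lower, and DESeq2 called 11 higher and 0 lower. Of all 12 lines left out in turn, only leaving out EV line 2C gave a lower call, of 1 gene. Tested against no change, however, 16 were higher and 11 lower, beside 3389 and 3897 of all genes tested. In the lines of mouse 1 alone 2 were called lower, and in those of mouse 2 alone 1 was.

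Among 9 receptor-proximal kinases only Fes, a kinase that binds beta chain receptors, was called, with EV lines between 0.0289 and 0.368 CPM and BCR-ABL1 lines between 0.772 and 1.10 CPM (log2 fold change 2.66, edgeR adjusted p = 0.00353). Jak2, the kinase held by the beta chains, had a log2 fold change of -0.62 and was not called (edgeR adjusted p = 0.552). Its groups did not overlap, however (47.0 to 76.1 CPM in EV lines, 36.4 to 42.8 CPM in BCR-ABL1 lines). Among all genes tested, 13.5% had every BCR-ABL1 line below every EV line. None of 5 STAT genes was called by edgeR or DESeq2, and 0 had an unadjusted glmTreat p under 0.05, with log2 fold changes of 0.01 for Stat5a and 0.07 for Stat5b. Stat6 was at -0.47 (limma standard error 0.07), and its groups did not overlap (96.3 to 121 CPM in EV lines, 74.0 to 86.7 CPM in BCR-ABL1 lines).

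Of 19 genes of the adaptor, RAS and PI3 kinase list, only Pik3cd, the delta catalytic subunit of PI3 kinase, was called higher (log2 fold change 1.85, edgeR adjusted p = 8.04e-07). Of 12 phosphatases and inhibitors, 4 were higher. They were Cish (3.19), Socs3 (3.19) and Socs1 (1.68), which damp JAK and STAT signals, and the docking protein Dok2 (1.52). Of 10 STAT5 target genes, 6 were higher, with a median of 1.02 over the list. These include Cish again, the kinase Pim1 (3.09), the cyclin Ccnd2 (3.05) and the inhibitor of E proteins Id1 (2.18).

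**Figure D4:**
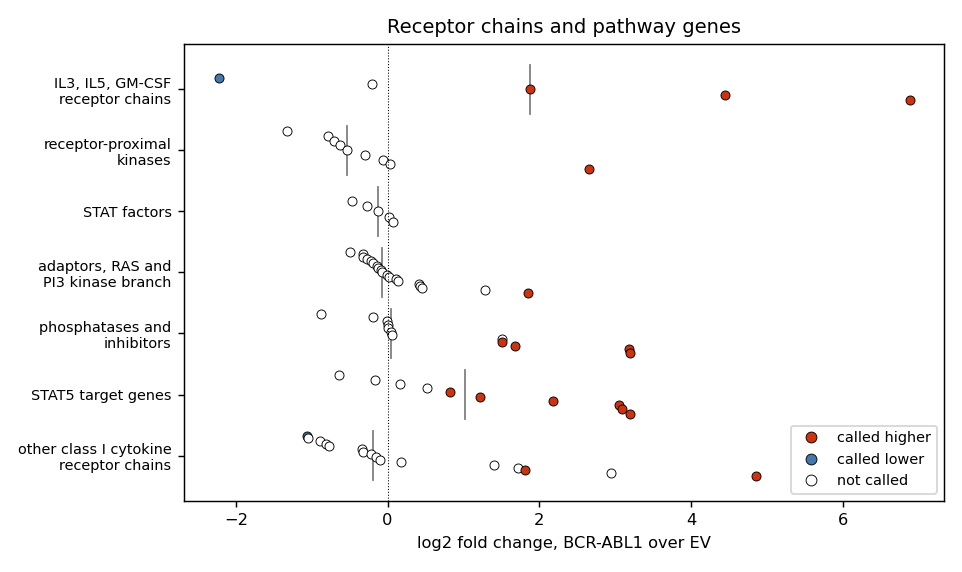
Log2 fold change of BCR-ABL1 over EV for each tested gene of the receptor chains and of 6 further lists, with red for called higher, blue for called lower, white for not called and a grey bar at each list's median. The receptor chains span -2.22 to 6.89. The STAT factors lie between -0.47 and 0.07, within the 1.5-fold change tested against, and none of them was called.

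Of 27 other receptor chains of the same class, 16 were tested, 2 were higher and 1 was lower, beside 12.5% of all genes tested called in either direction, with a median log2 fold change of -0.18. Lifr, a receptor for leukemia inhibitory factor, was higher (4.86, edgeR adjusted p = 0.0322), although its groups overlapped. Il12rb1, a chain of the IL12 and IL23 receptors, was higher (1.81, edgeR adjusted p = 0.0141). Il7r, the alpha chain of the IL7 receptor, was lower (-1.06, edgeR adjusted p = 0.00328). The count of higher calls dropped to 1 without EV line 1A, 1B, 1C or 2A or BCR-ABL1 line 2A, 2B or 2C. Without EV line 2C it was 4, with 2 lower, and with the mouse as replicate block it was 5. IL7 was present in the EV cultures and withdrawn from the BCR-ABL1 cultures.

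The lines carried the markers of the labelled cell type. All 11 B lineage markers were tested, with summed levels between 2530 and 4659 CPM in EV lines and between 2792 and 3691 CPM in BCR-ABL1 lines, with Vpreb1 and Ebf1 among the highest, and only Dntt was called (log2 4.30, edgeR adjusted p = 0.0396). Because these receptors are known from other blood cells, markers of those cells were summed too. Of 14 myeloid markers, 6 were at or under 3 counts in every line, and only Spi1, which B cells also express, passed the filter (log2 0.61, edgeR adjusted p = 0.748). The myeloid sums lay between 7.43 and 30.2 CPM in the EV lines and between 25.3 and 37.0 CPM in the others, and Spi1 alone ran from 6.64 to 29.9 and from 24.4 to 36.3 CPM. Next in level, Ly6g had means of 0.0469 CPM in EV and 0.290 CPM in BCR-ABL1, and Adgre1 0.266 and 0.00886 CPM. Lyz2, named after its values were seen, had 0.0478 and 0.226 CPM. These genes had at most 24, 32 and 25 counts in a line and were not tested, and Ly6g and Lyz2 overlapped between the groups.

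None of the 9 mast cell and basophil markers passed the filter. Their summed levels lay between 0.0144 and 1.10 CPM in EV lines and between 0 and 0.187 CPM in BCR-ABL1 lines, with Hdc, Gata2 and Kit highest. The 4 eosinophil markers summed to between 0.231 and 2.39 CPM in EV lines and to between 0.198 and 0.500 CPM in BCR-ABL1 lines, mostly Prg2, with Siglecf and Epx far lower. The 7 T and NK cell markers summed to 0.433 to 2.12 CPM and 0.415 to 3.76 CPM, led by Klrb1c, Cd3d and Cd8a, with Cd3d called lower (-2.67). The 6 erythroid and stromal markers summed to 0.226 to 1.66 CPM and 0.208 to 0.305 CPM, led by Klf1, Hbb-bs and Col1a1. The highest mast cell, eosinophil and erythroid sums were in EV line 2A, the highest myeloid sum in BCR-ABL1 line 2B and the highest T and NK sum in BCR-ABL1 line 1B. Their part in the levels of the receptor chains was not tested.

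Among the EV lines, 2A had the highest sums in every list of mast cell, eosinophil, T and NK, and erythroid and stromal markers. All of these sums were low, and the line had the lowest total counts, 34791011. It also had the highest EV level and share of Csf2rb2, at 0.276 CPM and 4.19%. Without this line the log2 fold change of Csf2rb2 was 7.26 (edgeR adjusted p = 1.28e-05). What these markers have to do with its Csf2rb2 was not tested. In bulk RNA, fewer cells expressing a gene and less RNA per cell cannot be told apart.

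Of the 7 tested genes near the receptor chains, 1 was called, beside 12.5% of all genes tested called in either direction. Within 100 kb of the beta chains, Ncf4, a subunit of the phagocyte oxidase whose gene lies 19.9 kb from Csf2rb2, lay between 33.7 and 67.3 CPM in EV lines and between 74.6 and 95.6 CPM in BCR-ABL1 lines. Its groups did not overlap, but its log2 fold change of 0.85 was not called (edgeR adjusted p = 0.0794). Tst (0.10) and Mpst (-0.21) were not called. Near Csf2ra, Zfp950 was lower (-1.25, edgeR adjusted p = 2.27e-05) and Gm6020 was not called (0.83). Near Il5ra, Trnt1 (0.35) and Crbn (-0.41) were not called, and no gene near Il3ra passed the filter.

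By correlation of log2 CPM over the 12 lines, the genes most like each chain were as follows. For Csf2rb they were Ppp1r21, Tifab and Pik3cd, each with a Pearson r of 0.994. For Csf2rb2 they were P2rx3 (0.996), Hspb8 (0.995) and Adgrl2 (0.995), and for Il3ra Rabl2 (0.995), Ifit1bl1 (0.990) and Zfp704 (0.988). For Il5ra they were Cdc42ep3 (0.989), Cpt1a (0.988) and Snn (0.988), and for Csf2ra Chn2 (0.976), Car5b (0.968) and Ssbp3 (0.963). All 12 lines enter these values, so any gene that differs between the conditions takes part of its r from that difference. Over all 12 lines, 588 genes had an r over 0.9 with Csf2rb, 740 with Csf2rb2, 551 with Il3ra, 735 with Il5ra and 54 with Csf2ra. With the condition means removed, Csf2rb2 and Csf2ra followed each other with r = 0.91 and Il3ra and Il5ra with r = 0.76 over the 12 lines. These were the highest values among pairs of chains. They are not particular to the chains, as 401 genes then had an r over 0.9 with Csf2rb2, 322 with Csf2ra, 81 with Il3ra and 73 with Il5ra. Csf2rb2 and Csf2ra both differed between the animals in EV, where Csf2rb2 had 1 to 11 counts per line. The lines of 1 mouse share an animal, so these correlations are descriptions.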

How the data were processed

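Stranded libraries of total RNA from 12 pre-B lines were sequenced. The authors deposited whole-number counts per gene, not normalized and not pooled. The submitters' processing notes name FastQC 0.11.5, Trimmomatic 0.36, TopHat2 2.1.1, Bowtie2 2.3.2, featureCounts 1.5.3, R 3.6.1, edgeR 3.18.1 and GRCm38, without roles. The annotation, the strand setting and the handling of reads that match several genes are not given in the sources used here, and the last bears on the near-identical beta chains.

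From these counts, genes were filtered with filterByExpr, scaled by TMM and tested in edgeR 4.0.16 (R 4.3.3) with glmTreat on a quasi-likelihood fit against 1.5-fold, with Benjamini-Hochberg adjustment over all genes tested. Standard errors and intervals came from limma 3.58.1 on log2 CPM with a prior count of 2. The interaction of mouse and condition, and mouse within condition, were tested with glmQLFTest. DESeq2 1.42.0 was an alternative. The scripts were tested on simulated data. GENCODE M21 on GRCm38 named 51633 of 51826 identifiers. Plots used matplotlib 3.10.9. Intervals of shares are Wilson intervals at 95% and hold for counting error alone, because PCR copies carry no molecular identifiers and are not separate molecules.

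Groups came from the vector in the labels. The number in a line's name was read as its animal, which is an inference, as the labels used do not name the animal. Deviations from the condition means correlated at 0.0853 to 0.240 between lines of the same number and at -0.203 to -0.0636 between numbers. The study prepared its triplicates in 3 independent experiments. Whether the letters in the names mark these experiments is not given in the sources used here. Named genes were the 5 chains, their ligands, up to 4 called genes with the largest change per pathway list (3 for the other receptor chains), the 3 most abundant of each marker list (1 B lineage gene is not reported here), tested genes within 100 kb of a chain, and the 3 genes most alike to each chain. Jak2, Stat5a, Stat5b, Stat6 and Lyz2 fall outside this rule and were named after their values were seen. The chains, lists and tests were chosen with earlier results of these data known.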

Additional observations from a re-analysis of the deposited data

Results flagged for a closer look

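Among 14 groups of 6 lines examined, 2 had a line far from the others by Dixon's test, and chance gives about 1 in 20. Both are EV line 2B, with Csf2rb at 13.6 CPM and the summed beta chains at 13.8 CPM (gap over range 0.746 and 0.753). They count largely the same reads. Without this line the log2 fold change of Csf2rb was 4.71 (edgeR adjusted p = 8.16e-10).

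The change of Csf2rb2 differed between the animals, by -2.69 on the log2 scale for mouse 2 against mouse 1 (edgeR interaction, adjusted p = 0.00386). It rests on 5 EV counts in mouse 1 and 27 in mouse 2.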

How the results depend on the processing

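Under all 10 alternatives to the fit of BCR-ABL1 against EV and without each of the 12 lines in turn, 3 chains were called higher and 1 lower, as with all lines. Without 1 line each, the log2 fold change ran from 4.35 to 4.71 for Csf2rb, 6.63 to 7.26 for Csf2rb2, 4.44 to 4.80 for their sum, 1.79 to 1.97 for Il3ra and -2.41 to -2.07 for Il5ra. Csf2ra, never called in glmTreat, ran from -0.31 to -0.07 and turned to 0.11 in the lines of mouse 1 alone. With the mouse as replicate block, in which same-numbered lines are paired by their animal, the values were 4.48, 7.09, -0.14, 1.87 and -2.32 for Csf2rb, Csf2rb2, Csf2ra, Il3ra and Il5ra, and no call of a chain changed. The share of Csf2rb2 differed by 6.81 percentage points in mouse 1 and 5.09 in mouse 2 alone, each with an exact permutation p of 0.1, the smallest 3 against 3 allow.

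For the interaction, Il5ra was also called with no filter (-1.21, edgeR adjusted p = 0.00183) and with the likelihood ratio test (-1.31, 0.0283). Without 1 line each, it ran from -1.64 to -0.95 for Il5ra, -0.63 to -0.40 for Csf2ra and -1.03 to -0.68 for Il3ra, and all 3 were called without EV line 2C. The differences between animals, an addition chosen after seeing the data, ran without 1 line each from -0.19 to 0.51 for Il5ra in EV, and in BCR-ABL1 from -0.036 to 0.092 for Csf2rb and -0.029 to 0.10 for the sum. Calls were added with no filter for Csf2rb in EV (0.50, edgeR adjusted p = 0.00753), the sum in EV (0.54, 0.00203) and Il5ra in BCR-ABL1 (-1.13, 2.86e-05), the last also with the likelihood ratio test (-1.13, 0.0130). For these refits of the interaction and of the animals, the share of all genes called was not counted.

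Of the downstream genes, 11 were called lower in the test against no change, 2 in mouse 1 alone and 1 in mouse 2 alone, where 7 were called higher. Without 1 line each, an addition chosen after seeing the data, 9 to 12 were higher and 0 to 1 lower. Other receptor chains called higher numbered 4 with the likelihood ratio fit, 4 against no change, 5 with the mouse as replicate block, 4 with the line pair as replicate block, 5 in mouse 1 and 0 in mouse 2, and 1 to 4 without 1 line each. Those called lower numbered 4 against no change, 2 in mouse 1, 0 in mouse 2 and 1 to 2 without 1 line each. The causes were not tested.

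Over all genes, 901 were called higher and 976 lower, against 3389 and 3897 in the test against no change, 2512 and 1877 in mouse 1 alone, 614 and 408 in mouse 2 alone, 602 and 674 with the CPM filter, 795 and 651 with DESeq2, and 1353 and 1434 without EV line 2C. Depth limits Csf2rb2 in EV and the ligands, where few or no counts were found.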
